A study of Mus musculus with 18 samples.

Results

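Six2, Six4, Six5, Eya1, Eya2, Eya3, Eya4 and Dach1 are 8 genes of the Six-, Eya- and Dach-type families. They were taken by symbol from both count tables of the study, where they are 8 of 26157 symbols at day 2 and 8 of 54114 symbols in the table of the later stages. All 8 had enough counts to be tested in both. The study took embryonic stem (ES) cells of the mouse toward the mesenchyme that neural crest gives to the face, called ectomesenchyme. A tdTomato reporter at Msx1, a homeobox gene of that tissue, marked the cells, which were cultured in embryoid bodies (EBs), aggregates in which ES cells differentiate.

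The tables hold 14 RNA-seq libraries, 2 for each of 7 groups. At day 2 the groups were EBs with inducible overexpression of Dlx2, a homeobox gene of the pharyngeal arches, and EBs with inducible overexpression of GFP, both read as given 1 µg/ml doxycycline. At days 8 and 16 they were Msx1-positive (Msx1+) and Msx1-negative (Msx1-) cells sorted from EBs of the inducible Dlx2 line, all of them with doxycycline. The last group was undifferentiated ES cells labelled WT and untreated, kept with serum and LIF. All groups carry the Msx1-tdTomato line. Both sorted fractions therefore share the Dlx2 transgene and the drug, though not the level of Dlx2 RNA, which is given below. No GFP or uninduced sample stands beside them at days 8 and 16. Whether the inducible lines are single clones is not given in the sources used here.

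Six-family proteins are homeodomain transcription factors that bind DNA but mostly need partners to activate their targets. Eya proteins are those partners: they bring activation to Six-bound genes and carry a protein phosphatase domain. Dach proteins belong to the Ski and Sno family and can turn the complex toward repression. Together with Pax factors the network builds the eye, ear, kidney and muscle, and Six-family and Eya genes also act in cranial neural crest, the palate and cranial placodes.

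Total counts ran from 26211608 to 41552818 per library at day 2 and from 53797597 to 107770730 per library in the other table. Msx1 itself was 73.7 and 81.6 CPM (counts scaled to the size and composition of each library) in Msx1+ cells and 0.818 and 0.752 CPM in Msx1- cells at day 16, so the sort followed its label. The ES libraries, labelled WT, held Dlx2 at 219 and 222 CPM, whereas GFP EBs had 2 counts in each library. The ES group therefore goes against its label for Dlx2, and every value set against it below is a difference from the libraries labelled ES. Dlx2 also differed between the sorted fractions. Its mean was 1203 CPM in Msx1+ and 270 CPM in Msx1- cells at day 8, and 315 and 139 CPM at day 16. The part of the Dlx2 level in the differences between the fractions was not tested. The summed level of 7 ectomesenchyme markers was 5486 to 5903 CPM in Msx1+ and 278 to 299 CPM in Msx1- cells at day 16. The summed level of 7 ES cell markers was 183 to 194 CPM in those Msx1+ cells and 2415 to 2417 CPM in the Msx1- cells. At day 2 the ES cell sum was 800 to 813 CPM in Dlx2 and 2916 to 2975 CPM in GFP EBs. The ectomesenchyme sum was 1533 to 1548 CPM and 9.29 to 10.7 CPM in the same EBs. Both sums thus moved with the sort and between the day-2 groups. Col1a2 was most of the ectomesenchyme sum, at 4641 CPM in day-16 Msx1+ cells and 1255 CPM in Dlx2 EBs. Alx1 was 0.491 CPM in Dlx2 and 0.405 CPM in GFP EBs, and the libraries overlapped. At day 8 it was 0.374 CPM in Msx1+ and 0.549 CPM in Msx1- cells. The other ectomesenchyme markers had higher means in Dlx2 EBs and in Msx1+ cells. The part of all these markers in the differences below was not tested. In bulk RNA, fewer cells of a type and less RNA per cell cannot be told apart.

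In outline, the 8 genes fell into 3 patterns over the sorted cells. Six2, Six5, Eya1, Eya4 and Dach1 were higher in Msx1+ than in Msx1- cells at both days, and Eya2 at day 16. Six4 ran the other way at both days. Eya3, the most abundant of the 8 in CPM, was not called at either day. A gene is called here when edgeR's quasi-likelihood test gave an adjusted p below 0.05 over all genes of the table. At day 8, 6 of 8 genes were called, 5 higher and 1 lower, against 54.7% of all genes tested (30.4% higher and 24.3% lower). At day 16, 7 of 8 were called, 6 higher and 1 lower, against 62.1% (31.1% higher and 31% lower). The median log2 difference of the 8 genes was 1.69 at day 8 and 2.11 at day 16, beside 0.062 and -0.016 over all genes.

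At day 2 the balance was even. Dlx2 EBs had 3 of the 8 genes higher than GFP EBs (Six2, Six5 and Eya2), 3 lower (Six4, Eya3 and Dach1) and 2 not called (Eya1 and Eya4). In all 6 of 8 were called, against 67.2% of all genes tested (34.1% higher and 33% lower), and the median difference was 0.33 beside 0.024 over all genes. Dach1 was therefore called lower at day 2 and higher in Msx1+ cells later.

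**Figure D1:**
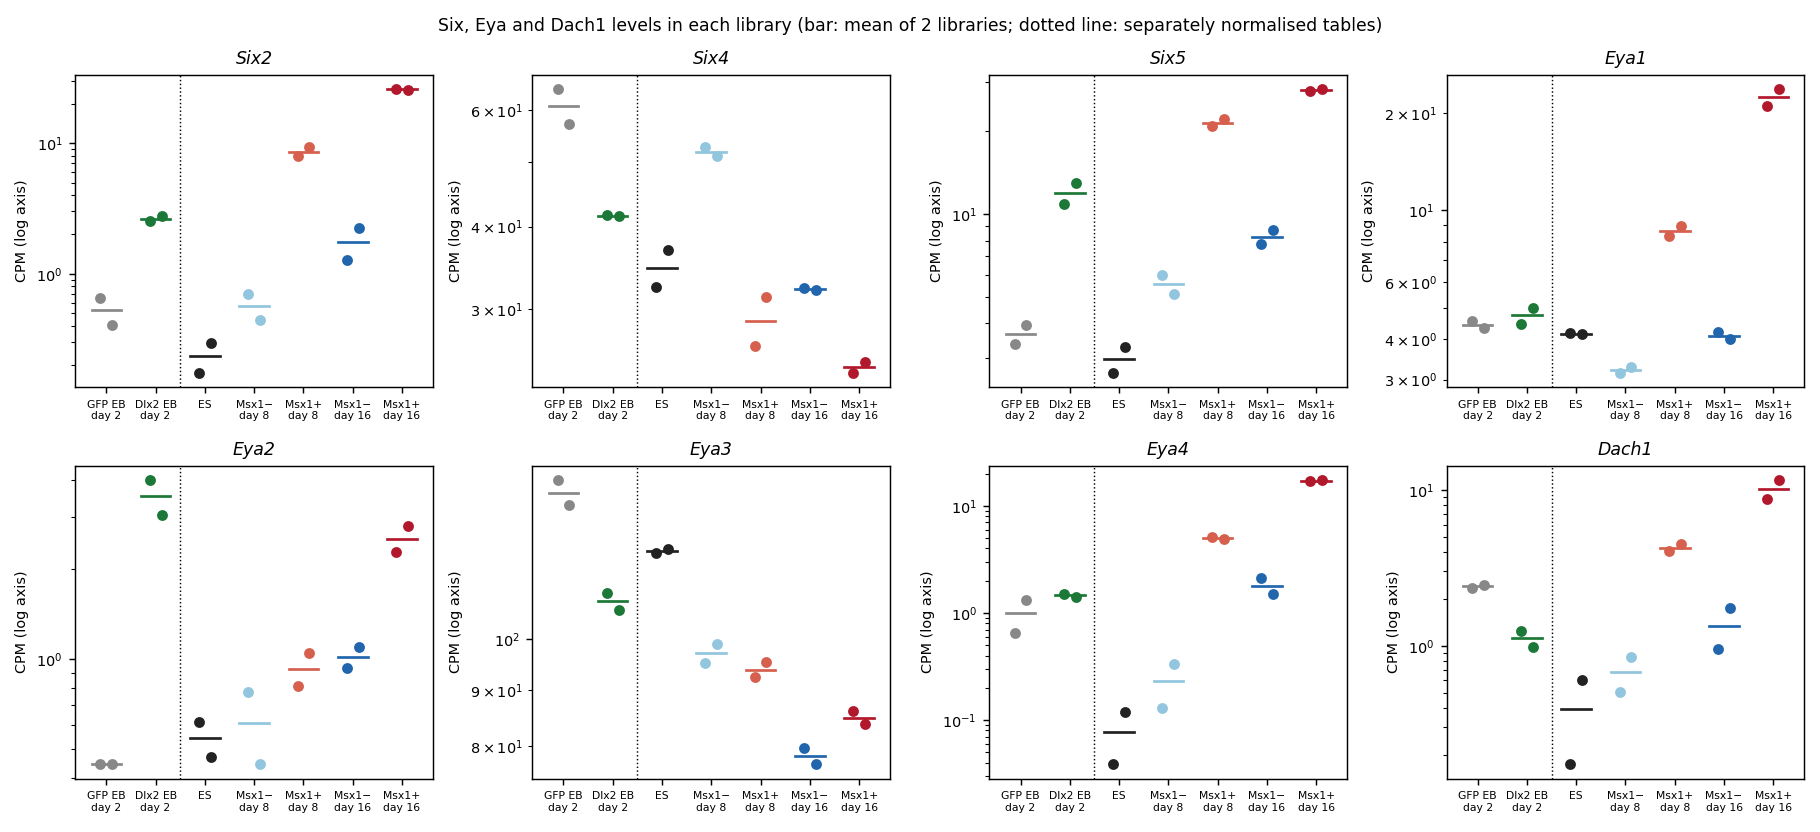
Level of each gene in every library, in CPM on a log axis, by group; points are libraries, bars the mean of 2 libraries, and the dotted line separates the 2 tables, which were normalised separately. Six2, Six5, Eya1, Eya4 and Dach1 stand highest in Msx1+ cells at day 16, where Six4 is lowest among the groups of its table.

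**Figure D2:**
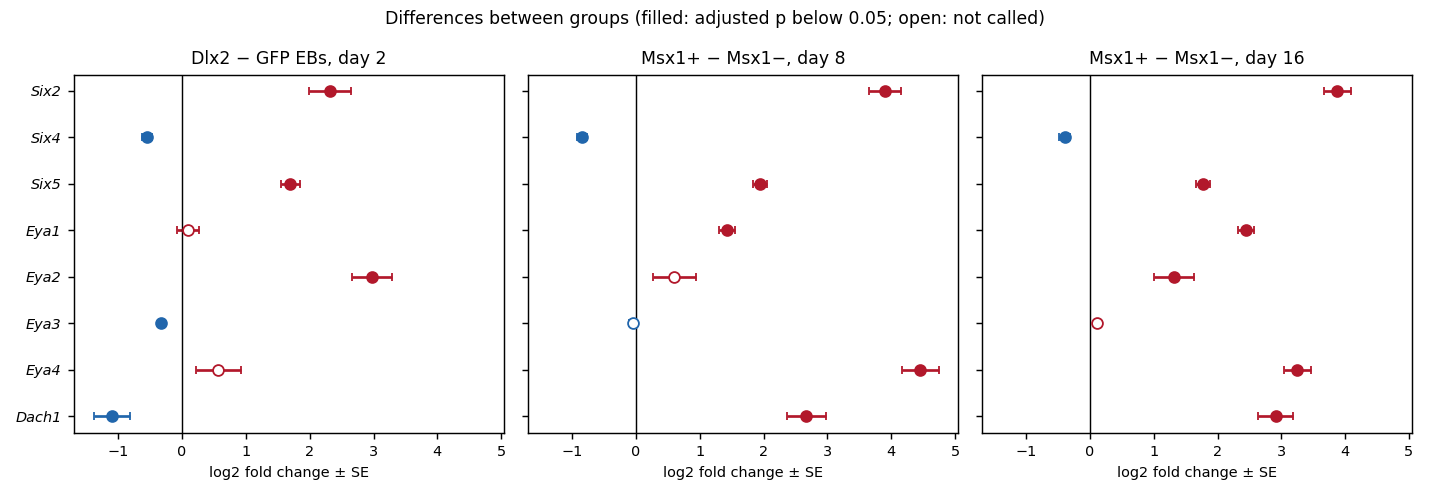
Log2 fold change with its SE for the day-2 comparison and for the sort at both days, filled where called by edgeR and open where not. Six4 lies below 0 in all 3 panels and Six2 and Six5 lie above 0 in all 3.

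The start-site sequences of 3 genes that rose together in the sort, and of the gene that fell, are printed because they show what their promoters have in common in letters and what they do not. Each is a window of 300 bases, 250 before and 50 after the start, from RefSeq on GRCm38.p6, read 5′ to 3′ on the gene's strand. Of the 8 genes, 6 had an entry in the promoter table, with 8 windows. Six2 is chr17:85688205-85688504, minus strand; Six5 is chr7:19094294-19094593, plus strand. Eya4 is chr10:23349841-23350140, minus strand; Six4 is chr12:73113196-73113495, minus strand. Capitals mark a match to TCAGGTTTC, the MEF3 element recognised by Six-family proteins, here on the opposite strand.
Six2: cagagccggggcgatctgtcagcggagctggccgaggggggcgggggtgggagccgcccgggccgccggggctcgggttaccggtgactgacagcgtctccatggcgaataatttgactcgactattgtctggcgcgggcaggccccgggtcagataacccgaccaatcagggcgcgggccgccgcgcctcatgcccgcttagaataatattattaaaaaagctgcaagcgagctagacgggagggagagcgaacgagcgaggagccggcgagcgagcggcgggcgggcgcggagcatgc
Six5: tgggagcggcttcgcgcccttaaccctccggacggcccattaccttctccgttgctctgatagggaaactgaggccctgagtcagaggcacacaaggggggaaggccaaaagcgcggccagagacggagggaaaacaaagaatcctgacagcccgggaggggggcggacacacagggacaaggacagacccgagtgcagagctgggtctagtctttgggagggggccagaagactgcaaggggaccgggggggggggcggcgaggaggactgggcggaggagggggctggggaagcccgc
Eya4: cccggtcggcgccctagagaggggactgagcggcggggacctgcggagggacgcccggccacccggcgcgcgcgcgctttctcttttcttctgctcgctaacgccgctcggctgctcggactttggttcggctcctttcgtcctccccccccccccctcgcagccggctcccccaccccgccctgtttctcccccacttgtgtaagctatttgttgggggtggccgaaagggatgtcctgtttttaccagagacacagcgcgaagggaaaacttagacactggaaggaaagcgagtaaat
Six4: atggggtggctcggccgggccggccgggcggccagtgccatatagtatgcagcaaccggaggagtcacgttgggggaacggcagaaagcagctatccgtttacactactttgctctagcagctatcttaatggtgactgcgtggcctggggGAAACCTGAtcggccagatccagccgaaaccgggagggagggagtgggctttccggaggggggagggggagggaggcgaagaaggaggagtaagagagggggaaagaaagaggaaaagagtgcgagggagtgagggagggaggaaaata

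All 4 windows are rich in G and C: 67.3% in Six2, 66.0% in Six5, 64.0% in Eya4 and 60.0% in Six4. The 8 windows ran from 54.0% to 69.3%, beside a median of 52.7% over 32851 RefSeq promoters of this length. Counted as CG pairs, Six2 held 37, Eya4 28, Six5 17 and Six4 16. The MEF3 letters, searched on both strands, occurred in 1 member window, the Six4 window printed here, beginning 99 bases before its start. Another Six4 window, chr12:73113376-73113675, for a different start, held no match. Over all 32851 promoters the letters occurred in 141, which is 0.429%. TAATTA, the letters at the core of many homeodomain sites, Dlx proteins included, reads the same on both strands and was in none of the 8 windows, against 5.29% of all promoters. A match is a description of letters and not of binding.

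Six2 keeps nephron progenitors undifferentiated in the kidney and is also expressed in cranial mesenchyme. It lies on chromosome 17 at 85684277 to 85688274 (GRCm38, minus strand). In Msx1+ cells it stood at 7.97 and 9.31 CPM at day 8 and 26.1 and 25.7 CPM at day 16. In Msx1- cells it was 0.697 and 0.443 CPM at day 8 and 1.28 and 2.24 CPM at day 16. Both Msx1+ libraries were above both Msx1- libraries at each day, with no overlap between any of the 5 groups of this table. The log2 difference between the fractions was 3.90 ± 0.25 (SE; adjusted p = 1.08e-08) at day 8 and 3.88 ± 0.21 (adjusted p = 1.57e-09) at day 16, about 15.0-fold and 14.7-fold. At day 2, Six2 was 2.51 and 2.77 CPM in Dlx2 EBs and 0.649 and 0.404 CPM in GFP EBs. That is a log2 difference of 2.32 ± 0.33 (adjusted p = 1.89e-06), and the GFP level rests on 26 counts in all.

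Six5 is the family member next to Dmpk, the kinase gene of myotonic dystrophy, and lies 772 bases from it in the annotation (chromosome 7, 19094594 to 19098549, plus strand). Dlx2 EBs held 10.8 and 12.9 CPM and GFP EBs 3.37 and 3.96 CPM. Six5 thus rose by 1.70 ± 0.15 on the log2 scale (adjusted p = 1.67e-09), with no overlap. In the sort it read 20.8 and 22.0 CPM in Msx1+ against 6.01 and 5.12 CPM in Msx1- cells at day 8. At day 16 the values were 27.9 and 28.5 CPM against 7.77 and 8.73 CPM. The differences of 1.94 ± 0.11 (adjusted p = 1.18e-09) and 1.77 ± 0.11 (adjusted p = 1.61e-09) were close to each other, and their change of -0.17 ± 0.15 was not called (adjusted p = 0.439). Dmpk, its neighbour, was higher in the same 3 comparisons, by 0.80, 1.96 and 2.13 on the log2 scale, with no exon of either gene overlapping another gene.

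Six4 acts with other Six factors in muscle, kidney and sensory ganglia. It is on chromosome 12 at 73099609 to 73113456, minus strand, and was the only one of the 8 lower in Dlx2 EBs and in Msx1+ cells at both days. At day 2 it was 41.6 and 41.4 CPM in Dlx2 EBs and 64.5 and 57.0 CPM in GFP EBs, a difference of -0.55 ± 0.072 (adjusted p = 6.21e-07). At day 8, Msx1+ cells had 26.4 and 31.3 CPM and Msx1- cells 52.7 and 51.0 CPM. At day 16 the fractions were closer, with 24.1 and 25 CPM against 32.3 and 32.1 CPM. The libraries did not overlap at either day, and the differences were -0.85 ± 0.082 (adjusted p = 5.04e-07) and -0.40 ± 0.084 (adjusted p = 0.000832). As folds they are 0.556 and 0.760, smaller changes than those of Six2 and Six5 in the same cells.

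With Six4 moving against Six2 and Six5, the make-up of the 3 differed between groups. Levels were compared between genes after division by exon length (CPM per kb), and each gene's share of the sum of Six2, Six4 and Six5 was taken. Six4 made up 74.5% ± 1.6 (SD, n = 2) of that sum in ES cells and 9.47% ± 0.24 in Msx1+ cells at day 16. Six2 went from 2.54% ± 0.65 to 51.3% ± 0.75 over the same groups. Six5 led in Msx1+ cells at day 8 with 51.5% ± 1.8, ahead of Six2 at 29.4% ± 1.0. Msx1- cells at day 16 stood between, with 45.5% ± 3.9 Six4, 42.0% ± 0.044 Six5 and 12.5% ± 3.9 Six2. The sum itself was 4.29 ± 0.48 CPM per kb in ES cells and 23.9 ± 0.042 CPM per kb in Msx1+ cells at day 16. At day 2, Six4 held 79.2% ± 2.1 of the sum in GFP EBs and 42.4% ± 2.8 in Dlx2 EBs, where Six5 had 43.7% ± 2.7. These shares restate the levels above and were not tested on their own.

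**Figure D3:**
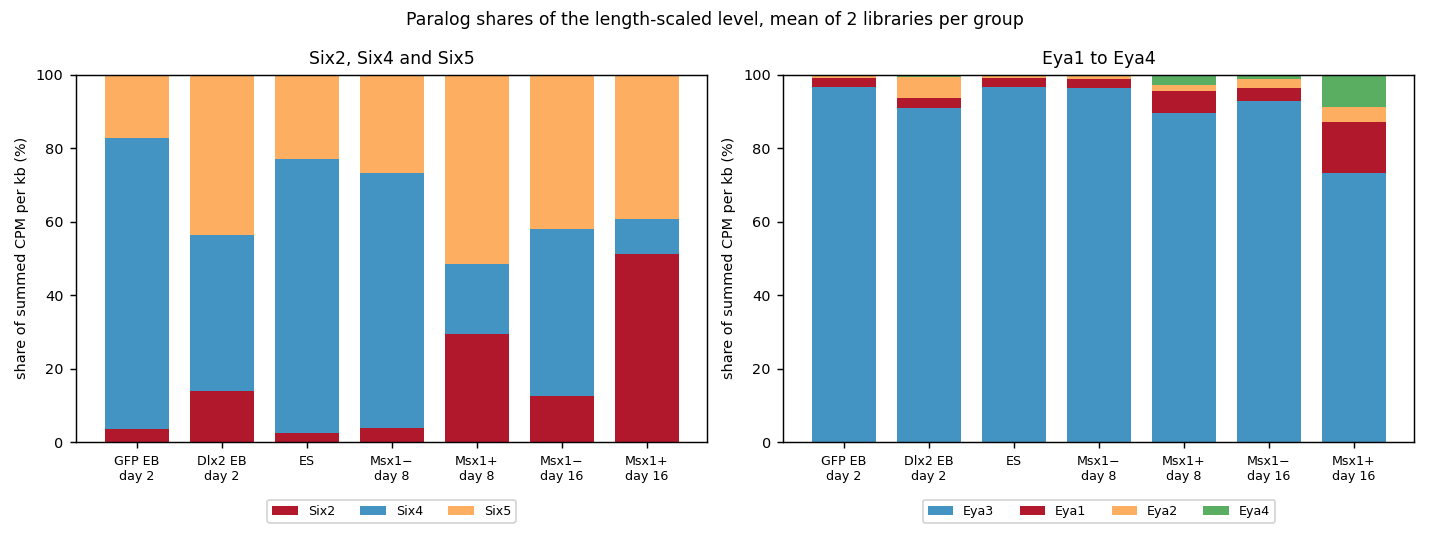
Share of each gene in the summed CPM per kb of Six2, Six4 and Six5 (left) and of Eya1 to Eya4 (right), as the mean of 2 libraries per group. Six4 fills most of the left bar in ES cells, GFP EBs and day-8 Msx1- cells, and Eya3 fills most of every right bar, down to 73.1% in day-16 Msx1+ cells.

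Eya1 is the coactivator mutated in branchio-oto-renal syndrome and acts in the ear, kidney and pharyngeal arches (chromosome 1, 14168954 to 14310235, minus strand). It was 4.46 and 5.0 CPM in Dlx2 EBs and 4.54 and 4.32 CPM in GFP EBs, so the groups overlapped. The difference was 0.091 ± 0.17, with a 95% interval from -0.25 to 0.43, and it was not called (adjusted p = 0.658). At day 8, Msx1+ cells held 8.32 and 8.96 CPM and Msx1- cells 3.14 and 3.27 CPM. By day 16 Msx1+ cells held 20.9 and 23.7 CPM, and Msx1- cells 4.2 and 3.99 CPM. The fractions differed by 1.43 ± 0.13 (adjusted p = 1.82e-07) and then by 2.44 ± 0.12 (adjusted p = 2.81e-10). The widening of 1.01 ± 0.18 was itself called (adjusted p = 0.000509).

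Eya4 is the family member known from hereditary deafness and cardiomyopathy (chromosome 10, 23102963 to 23350786, minus strand). It was nearly silent in the ES libraries, at 0.0386 and 0.118 CPM, which are 2 and 6 counts. Msx1+ cells had 5.12 and 4.87 CPM at day 8 and 16.9 and 17.4 CPM at day 16. Msx1- cells had 0.130 and 0.333 CPM and then 2.11 and 1.49 CPM. No library of one fraction reached the other at either day. The differences were 4.46 ± 0.28 (adjusted p = 5.24e-09) at day 8, the largest among the 8 genes at that day, and 3.25 ± 0.21 (adjusted p = 4.3e-09) at day 16. At day 2 the values were 1.52 and 1.42 CPM in Dlx2 EBs and 0.649 and 1.33 CPM in GFP EBs. The second GFP library stood close to the Dlx2 libraries, and the difference of 0.57 ± 0.35 was not called (adjusted p = 0.161). Without GFP replicate 2 it was 1.16 and called (adjusted p = 0.0182).

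Eya2, which is expressed in placodes, somites and developing muscle, had its largest difference at day 2 (chromosome 2, 165595032 to 165771727, plus strand). Dlx2 EBs had 3.99 and 3.03 CPM and GFP EBs 0.446 and 0.444 CPM. The increase of 2.98 ± 0.31 (adjusted p = 2.16e-08) was the largest of the 8 genes at that day. In the sort it stayed low: 0.810 and 1.05 CPM in Msx1+ and 0.778 and 0.443 CPM in Msx1- cells at day 8. These libraries came close without overlapping, and the difference of 0.60 ± 0.33 was not called (adjusted p = 0.148; 95% interval -0.056 to 1.26). At day 16 the levels were 2.28 and 2.79 CPM against 0.932 and 1.10 CPM, and the difference of 1.32 ± 0.31 was called (adjusted p = 0.00202). Being called at day 16 and not at day 8 does not show that the days differ: the change of 0.72 ± 0.46 between them was not called (adjusted p = 0.279).

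Eya3 is the broadly expressed member of the family, with a phosphatase linked to the DNA damage response (chromosome 4, 132638987 to 132724765, plus strand). Dlx2 EBs had 110 and 106 CPM and GFP EBs 139 and 132 CPM. It fell by 0.33 ± 0.051 on the log2 scale (adjusted p = 7.75e-06), a 0.798-fold level. Msx1+ cells read 92.4 and 95.4 CPM and Msx1- cells 95.2 and 99.0 CPM at day 8, and these overlapped. At day 16 the values were 86.1 and 83.8 CPM against 79.7 and 77.0 CPM. The differences of -0.050 ± 0.057 (95% interval -0.16 to 0.061) and 0.11 ± 0.057 (95% interval 0.0018 to 0.23) were not called, with adjusted p-values of 0.488 and 0.0987. These intervals are normal approximations and somewhat narrow. At day 16 the p-value of edgeR's test before adjustment was 0.0665, also above 0.05.

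Per kb, Eya3 made up 96.7% ± 0.15 of the Eya sum in ES cells and 73.1% ± 1.8 in Msx1+ cells at day 16. In those cells Eya1 had reached 13.9% ± 1.1, Eya4 8.86% ± 0.13 and Eya2 4.16% ± 0.56. The Eya sum was 22.0 ± 0.098 CPM per kb in ES cells and 20.6 ± 0.12 in day-16 Msx1+ cells, unlike the sum of Six2, Six4 and Six5, which was several times higher there. At day 2, Eya2 went from 0.604% ± 0.019 of the sum in GFP EBs to 5.59% ± 0.90 in Dlx2 EBs.

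Dach1, the corepressor of the set, lies on chromosome 14 at 97786853 to 98169765, minus strand. Dlx2 EBs held 1.25 and 0.983 CPM and GFP EBs 2.35 and 2.46 CPM, a difference of -1.10 ± 0.28 (adjusted p = 0.00179). In the sort Dach1 was 4.06 and 4.48 CPM in Msx1+ and 0.502 and 0.850 CPM in Msx1- cells at day 8. At day 16 it was 8.75 and 11.6 CPM against 0.949 and 1.75 CPM. The groups of each comparison did not overlap. The differences were 2.67 ± 0.30 (adjusted p = 2.73e-06) and 2.91 ± 0.27 (adjusted p = 3.55e-07).

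The difference between the fractions itself changed from day 8 to day 16 in 3 of the 8 genes, 2 toward higher and 1 toward lower, against 28.6% of all genes tested (10.3% and 18.3%). Eya1 widened, as given above. Six4 narrowed, by 0.45 ± 0.12 (adjusted p = 0.00933), but with scaling by library size alone the change was 0.26 and no longer called (adjusted p = 0.0899). Eya4 narrowed by a change of -1.21 ± 0.38 (adjusted p = 0.0285), as its Msx1- level rose more steeply than its Msx1+ level. That call was lost on leaving out any of 4 libraries: -0.62 and adjusted p = 0.263 without day-8 Msx1- replicate 1, and -0.92 and 0.109 without day-16 Msx1- replicate 1. Without day-16 Msx1+ replicate 1 it was -1.2 and 0.0702, and without replicate 2 of that group -1.22 and 0.063. The other 5 genes were not called for a change, and Six2 had the smallest one, -0.026 ± 0.31 (95% interval -0.63 to 0.58).

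Within the Msx1+ fraction, all 8 genes were called between day 8 and day 16, 6 higher and 2 lower, against 45.9% of all genes (21.1% higher and 24.8% lower). Eya4 rose by 1.78 ± 0.19 (adjusted p = 2.25e-06), Six2 by 1.58 ± 0.18 (adjusted p = 6.92e-06) and Eya2 by 1.44 ± 0.31 (adjusted p = 0.00139). Eya1 rose by 1.37 ± 0.12 (adjusted p = 1.94e-07), Dach1 by 1.25 ± 0.25 (adjusted p = 0.000757) and Six5 by 0.39 ± 0.099 (adjusted p = 0.00428). The decreases were small. Six4 changed by -0.24 ± 0.083 (adjusted p = 0.0305), and this call was lost in 5 of 12 alternatives, with adjusted p-values from 0.00198 to 0.354, among them those without day-8 Msx1+ replicate 2 and without either day-16 Msx1+ library. Eya3 changed by -0.15 ± 0.057 (adjusted p = 0.0485), and its call was lost in 10 of 12, with adjusted p-values from 0.00111 to 0.197, including each of the 4 that leave out a library.

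In Msx1- cells, 7 of 8 genes were called over the same days, 5 higher and 2 lower, against 37.6% of all genes (19.7% higher and 17.8% lower). Eya4 rose by 2.99 ± 0.31 (adjusted p = 3.23e-06) and Six2 by 1.61 ± 0.28 (adjusted p = 0.000487), from the low levels given above. Six5 rose by 0.57 ± 0.11 (adjusted p = 0.00103), while Six4 fell by 0.69 ± 0.083 (adjusted p = 1.27e-05) and Eya3 fell by 0.31 ± 0.057 (adjusted p = 0.000599). The summed ectomesenchyme markers also moved in this fraction, from 54.5 to 58.0 CPM at day 8 to 278 to 299 CPM at day 16. Most of that rise was Pdgfra (17.3 and then 147 CPM) and Col1a2 (27.7 and then 118 CPM). Prrx1 and Twist1 also rose. Msx1 (1.46 and 0.785 CPM), Dlx5 (2.54 and 0.720 CPM) and Alx1 (0.549 and 0.425 CPM) had lower means at day 16. The 4 visceral endoderm markers summed to 4.57 to 4.95 CPM at day 8 and 111 to 114 CPM at day 16. The part of these markers in the changes of this fraction was not tested. Dach1 changed by 1.01 ± 0.32 (adjusted p = 0.024), a call lost without day-8 Msx1- replicate 1 (0.65, adjusted p = 0.225), without day-16 Msx1- replicate 2 (0.50, adjusted p = 0.321) and in a fit that also held the ES libraries (adjusted p = 0.0755). Eya1 changed by 0.35 ± 0.13 (adjusted p = 0.0488), and 9 of 11 alternatives ended that call, with adjusted p-values from 0.0202 to 0.204, including each of the 4 that leave out a library. Eya2 was not called, at 0.72 ± 0.34 (adjusted p = 0.117), though it was without day-8 Msx1- replicate 1 (1.17, adjusted p = 0.0489).

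Set against the libraries labelled ES, most of the 8 genes were higher in the Msx1+ fraction. Day-16 Msx1+ cells had all 8 genes called, 6 higher and 2 lower, against 71% of all genes tested (37.3% higher and 33.7% lower). Eya4 was higher by 7.75 ± 0.36 (adjusted p = 1.58e-12), a fold that rests on 8 ES counts. Six2 was higher by 6.78 ± 0.29 (adjusted p = 1.41e-12), over 24 ES counts, at 0.174 and 0.294 CPM. Dach1, at 0.174 and 0.608 CPM in the ES libraries, was higher by 4.70 ± 0.43 (adjusted p = 2.49e-07). Six5 had risen from 2.64 and 3.29 CPM by 3.25 ± 0.13 (adjusted p = 2.73e-13), Eya1 from 4.17 and 4.16 CPM by 2.42 ± 0.13 (adjusted p = 1.63e-11). Eya2 had 0.617 and 0.470 CPM in ES cells and rose by 2.22 ± 0.35 (adjusted p = 2.09e-05). The ES values of Six4 were 32.4 and 36.8 CPM and those of Eya3 120 and 121 CPM, and both fell, by 0.50 ± 0.088 (adjusted p = 7.15e-05) and by 0.50 ± 0.055 (adjusted p = 2.37e-07). The 4 sorted groups share the same ES libraries, so these comparisons are not independent of each other.

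At day 8, Msx1+ cells had 7 of 8 genes called against the ES libraries, 5 higher and 2 lower, beside 61.5% of all genes (34.6% higher and 26.9% lower). The increases were 5.97 ± 0.38 for Eya4, 5.20 ± 0.30 for Six2, 3.45 ± 0.43 for Dach1, 2.85 ± 0.13 for Six5 and 1.06 ± 0.13 for Eya1. Eya2 was not called, at 0.78 ± 0.36 (adjusted p = 0.0682), though it was with library size alone (0.96, adjusted p = 0.0264). Eya3 differed by -0.36 ± 0.055 (adjusted p = 1.84e-05). The decrease of Six4, -0.26 ± 0.087 (adjusted p = 0.0148), was lost without ES replicate 2, without day-8 Msx1+ replicate 1 and with library size alone, where adjusted p-values reached 0.46.

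Most of the 8 genes stood nearer to the ES libraries in Msx1- cells, but not Six4 at day 8 or Eya3 at day 16. At day 8, 5 of 8 genes were called, 3 higher and 2 lower, against 33.6% of all genes (19% higher and 14.5% lower). Six4 was higher by 0.58 ± 0.086 (adjusted p = 4.59e-05), so day-8 Msx1- cells held the highest Six4 of the 5 groups of this table. Six5 was higher by 0.91 ± 0.14 (adjusted p = 5.85e-05) and Eya3 lower by -0.31 ± 0.055 (adjusted p = 0.000284). Six2 differed by 1.30 ± 0.41 (adjusted p = 0.0218), a call lost without ES replicate 1 and without day-8 Msx1- replicate 1, with adjusted p-values up to 0.215 over its alternatives. Eya1 differed by -0.38 ± 0.14 (adjusted p = 0.0478), lost in 8 of 10 alternatives with adjusted p-values from 0.031 to 0.192, including each of the 4 that leave out a library. Eya2, Eya4 and Dach1 were not called, at 0.18, 1.51 and 0.78. Of these, Eya4 was called in 4 of 10 alternatives: without ES replicate 2 (2.49, adjusted p = 0.0439), without day-8 Msx1- replicate 1 (2.07, adjusted p = 0.0135), with no filter on low counts (adjusted p = 0.0247) and with DESeq2 (adjusted p = 0.0401). Dach1 was called in 1 of 10, without ES replicate 2 (1.94, adjusted p = 0.0241).

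By day 16, Msx1- cells had 6 of 8 called against ES, 5 higher and 1 lower, beside 53% of all genes (28.5% higher and 24.5% lower). Eya4 was higher by 4.50 ± 0.42 (adjusted p = 6.75e-08), Six2 by 2.90 ± 0.34 (adjusted p = 1.84e-06), Dach1 by 1.79 ± 0.46 (adjusted p = 0.00486) and Six5 by 1.48 ± 0.13 (adjusted p = 5.53e-08). Eya3 fell by 0.62 ± 0.055 (adjusted p = 4.32e-08). Eya2 differed by 0.90 ± 0.36 (adjusted p = 0.0463), a call lost in 7 of 10 alternatives, each of the 4 without a library among them, with adjusted p-values from 0.0279 to 0.214. Six4 and Eya1 were not called, at -0.10 ± 0.087 (95% interval -0.27 to 0.067) and -0.022 ± 0.14 (95% interval -0.29 to 0.25).

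**Figure D4:**
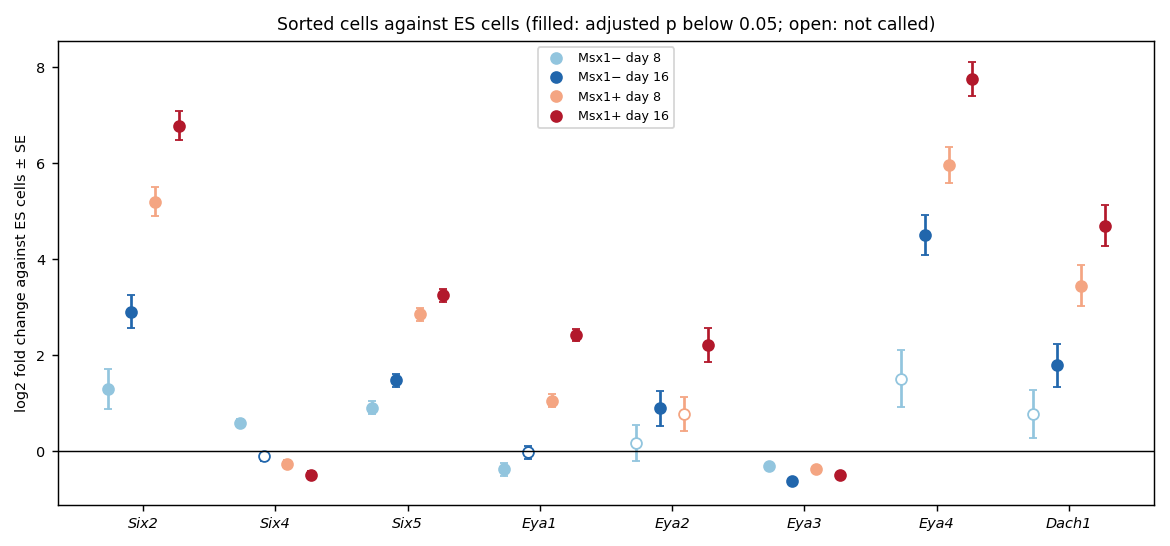
Log2 fold change with its SE of each gene in the 4 sorted groups against the libraries labelled ES, filled where called by edgeR and open where not. Eya4, Six2 and Dach1 lie highest, at 7.75, 6.78 and 4.70 in day-16 Msx1+ cells, and Six4 and Eya3 lie near or below 0 except for Six4 in day-8 Msx1- cells, at 0.58.

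Over the 5 groups of this table, the order of mean levels was the same for Six2, Six5, Eya4 and Dach1: day-16 Msx1+, day-8 Msx1+, day-16 Msx1-, day-8 Msx1- and ES. Neighbouring groups did not overlap for Six2, Six5 and Eya4, and for Dach1 the last pair, day-8 Msx1- and ES, did. Eya1 had the same order at the top, but ES and day-16 Msx1- cells overlapped and day-8 Msx1- cells were lowest. For Eya2, day-16 Msx1- overlapped day-8 Msx1+ cells and day-8 Msx1- overlapped ES. Eya3 was ordered ES, day-8 Msx1-, day-8 Msx1+, day-16 Msx1+, day-16 Msx1-, with overlap between the day-8 fractions. Six4 began with day-8 Msx1- cells, then ES, and ended with the Msx1+ groups.

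Across the 10 libraries of that table, levels of Six2 and Dach1 had a Pearson correlation of 0.9897 on log2(CPM + 1), Six2 and Eya4 of 0.9831 and Six2 and Six5 of 0.9706. Six4 ran against Six2 (-0.7668) and Eya4 (-0.804), and Eya3 against Six5 (-0.6188). These 10 points come from 5 groups of 2, so they mainly restate the differences between groups. Among 15099 genes with a mean of at least 1 CPM, the gene most like Six2 was Twist1, a bHLH factor of cranial mesenchyme, at 0.9986, ahead of Il11ra1 (0.9982) and Pcdhgb6 (0.998). The nearest to Eya4 were Brip1os (0.9985), Fkbp7 (0.9982) and Dnajb4 (0.9968). Eya1 was closest to Zbtb1 (0.9956) with Pdgfc and Naxd (0.9944 each), and Dach1 to Tmem65 (0.9944), 4933421O10Rik (0.994) and Ppp4r3b (0.9929). Likeness was lower at the top for 3 genes: Bend3 for Six4 (0.9705), Txnl4b for Eya2 (0.982) and Tmem183a for Eya3 (0.9817).

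The rest of the network was read from lists of genes. Other rows of these families were Six3, Six6 and Dach2. Six3, a forebrain and eye factor whose gene lies 55 kb from Six2, was 10.8 CPM in Dlx2 EBs and 0.344 CPM in GFP EBs, a difference of 4.95 ± 0.25 (adjusted p = 4.53e-14). It was also higher in Msx1+ cells, by 4.05 ± 0.25 at day 8 and 2.68 ± 0.26 at day 16. Unlike Six2, it was lower in day-16 than in day-8 Msx1+ cells, by -1.45 ± 0.21 (adjusted p = 4.49e-05). Six3 shares exon bases with antisense genes, whose reads these unstranded counts cannot separate. Six6, a relative in eye and pituitary that also shares exon bases with another gene, had 55 counts in Dlx2 EBs and 2 in GFP EBs, a 17.3-fold ratio with a 95% counting interval from 4.56 to 146, and was not called in the sort. Dach2 was not called in any of the 3 comparisons.

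Pax factors, which act above or beside Six-family and Eya genes, were mostly higher. Of 7 listed, 6 were tested at day 2. Of these, 5 were called higher and none lower, beside 34.1% and 33% of all genes. In the sort 4 of 7 were higher and 1 lower at day 8, beside 30.4% and 24.3% of all genes. At day 16, 5 were higher and 1 lower, beside 31.1% and 31%. The list medians were 1.89, 2.33 and 1.51 over the 3 comparisons. Pax9, a factor of tooth and palate mesenchyme, was higher by 2.93 ± 0.27, 4.50 ± 0.21 and 3.18 ± 0.17 in that order. Pax3, an early neural crest and muscle progenitor factor, was higher by 2.93 ± 0.38, 2.82 ± 0.41 and 2.19 ± 0.32. Pax8, a kidney and thyroid factor, was the exception, lower in Msx1+ cells by -0.92 ± 0.29 at day 8 and by -2.0 ± 0.33 at day 16. Pax8 and Pax9 share exon bases with other genes.

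The cofactors that link Six-family, Eya and Dach proteins to repression or activation showed no common direction. Of 11, 4 were called higher and 5 lower at day 2, 4 higher and 3 lower at day 8, and 7 higher and 4 lower at day 16. The shares of all genes were 34.1% higher and 33% lower, 30.4% and 24.3%, and 31.1% and 31%, in that order. The list medians of -0.091, 0.078 and 0.37 are close to those of all genes at day 2 and day 8. Tle2, a Groucho-type corepressor, was higher by 1.81 ± 0.21, 3.91 ± 0.11 and 3.70 ± 0.11. Sobp, the mammalian relative of the Drosophila sine oculis binding protein, was higher by 1.10 ± 0.19, 2.11 ± 0.16 and 1.75 ± 0.15. Tle4, of the same Groucho type as Tle2, ran the other way, at -0.39 ± 0.053, -0.82 ± 0.061 and -0.87 ± 0.064. Tle2 and Sobp share exon bases with other genes.

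Genes described as targets of Six-family and Eya proteins were split as well. Of 15, 12 were tested at day 2 with 4 called higher and 5 lower. All 15 were tested in the sort, with 6 higher and 4 lower at day 8 and 5 higher and 6 lower at day 16. Of all genes, 34.1% were higher and 33% lower at day 2, 30.4% and 24.3% at day 8, and 31.1% and 31% at day 16. The list medians were -0.077, -0.036 and -0.88. Isl1, a LIM homeobox gene of arch mesenchyme and neurons, was higher by 2.60 ± 0.24, 3.03 ± 0.25 and 3.17 ± 0.24. Gdnf, the kidney growth factor downstream of Eya1 and Six2, had 43 counts in Dlx2 EBs and 2 in GFP EBs, a 13.5-fold ratio with a counting interval from 3.52 to 115. At day 8 it had 180 counts in Msx1+ and 1 in Msx1- cells. Ccnd1, which encodes cyclin D1 and shares exon bases with another gene, was lower in Dlx2 EBs by -1.29 ± 0.049 and higher in day-16 Msx1+ cells by 2.46 ± 0.061. Neurog1, a placodal neuron factor, was lower in all 3 comparisons, at -2.54, -1.54 and -2.57. The muscle targets Myog, Myod1 and Myf5 were not called in the sort at either day, and Myog, the only one tested at day 2, was not called there. Their group means reached at most 1.01 CPM.

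Nephric and Hox regulators listed around Six2 and Eya1, Hoxa2 among them, were mostly higher. Of 8, 6 were tested at day 2 with 5 higher and 1 lower. In the sort 6 were higher and 1 lower at day 8, and 7 higher and 1 lower at day 16. Of all genes, 34.1% were higher and 33% lower at day 2, 30.4% and 24.3% at day 8, and 31.1% and 31% at day 16. Osr1, an early nephric and head mesenchyme factor, had 1685 counts in day-8 Msx1+ and 0 in Msx1- cells, at least 349-fold higher when 3 counts over both Msx1- libraries are taken as the floor. At day 16 it was higher by 4.08 ± 0.15. Hoxd11 and Hoxa11, which pattern the nephric mesenchyme, had 75 and 48 counts in Dlx2 EBs and 0 in GFP EBs, at least 15.7-fold and 10.04-fold higher against the same floor, and both share exon bases with other genes. Lhx1, needed for the nephric duct, was higher by 3.40 ± 0.30, 2.14 ± 0.17 and 1.2 ± 0.14. Wt1, needed in the nephron lineage, was lower by -3.12 ± 0.18 in Dlx2 EBs and -0.50 ± 0.14 at day 8, and higher by 0.85 ± 0.14 at day 16. Cited1, a marker of the earliest nephron progenitors, was higher by 2.39 ± 0.16 in Dlx2 EBs and lower by -1.66 ± 0.11 in day-16 Msx1+ cells. The list medians were 2.90, 2.04 and 1.93, and 2.86 at day 2 with the 2 genes that had no counts in GFP EBs set at their lower bounds. None of these lists was tested as a set.

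**Figure D5:**
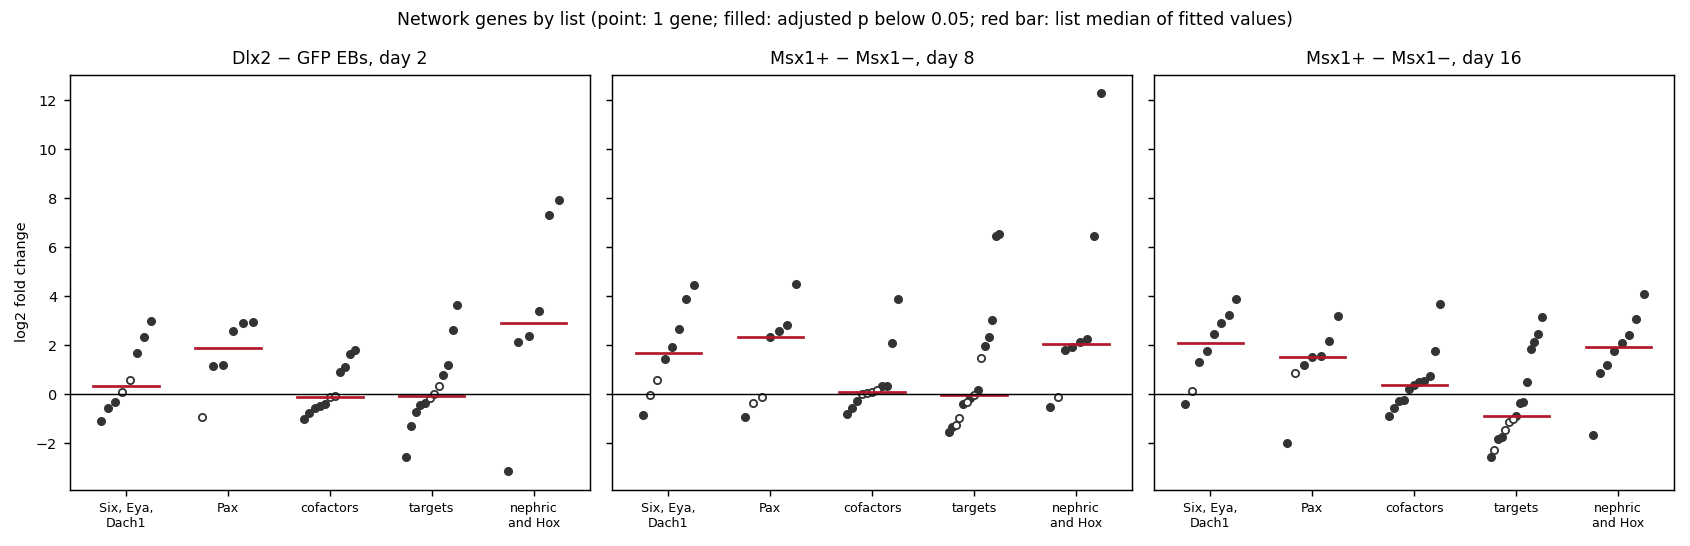
Log2 fold change of every tested gene of each list in the day-2 comparison and in the sort at both days, with filled points called by edgeR, open points not called, and a red bar at the list median of fitted values. Pax partners and the nephric and Hox regulators lie mostly above 0, while cofactors and targets lie on both sides; fitted values for genes without counts in a group are no bound.

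Since Six-family and Eya genes are also muscle, kidney and placode genes, markers of those tissues were read in every group. The summed level of 8 skeletal muscle markers was 2.41 to 2.42 CPM in day-16 Msx1+ cells and 9.16 to 9.44 CPM in Msx1- cells. In Msx1- cells most of that sum was Myh3, an embryonic myosin, at 7.44 CPM. Myh3 was 1.16 CPM in Msx1+ cells. Myf5 and Mymk have no row in the day-2 table used here. The 8 nephron progenitor markers summed to 381 to 382 CPM in Msx1+ and 321 to 326 CPM in Msx1- cells at day 8, and to 173 to 175 CPM and 234 to 239 CPM at day 16. The nephron sums at day 2 were 290 to 294 CPM in Dlx2 and 246 to 251 CPM in GFP EBs. For 8 cranial placode and otic markers the sums were 39.5 to 44.7 CPM against 34.8 to 35.6 CPM at day 8, and 30.0 to 32.2 CPM against 30.7 to 34.3 CPM at day 16. At day 2 the placode sums overlapped, at 52.3 to 58.1 CPM in Dlx2 and 47.3 to 52.9 CPM in GFP EBs. The ES libraries held a nephron sum of 274 to 286 CPM and a placode sum of 33.5 to 41.2 CPM. The placode sums hide opposite moves. At day 2, Irx1 was 26.8 CPM in Dlx2 and 0.263 CPM in GFP EBs. Foxi3 was 4.54 and 17.2 CPM there, and Neurog1 0.324 and 1.88 CPM. At day 16, Irx1 was 9.03 CPM in Msx1+ and 2.33 CPM in Msx1- cells, and Foxi3 0.487 and 2.56 CPM. In the nephron sums the most abundant genes moved apart. At day 8, Crym was 258 CPM in Msx1+ and 70.4 CPM in Msx1- cells, and Sall1 92.9 and 236 CPM. At day 2, Crym was 140 CPM in Dlx2 and 7.56 CPM in GFP EBs, and Sall1 135 and 226 CPM. The lower nephron sum of Msx1+ cells at day 16 follows Sall1 and Cited1 and not most of its list. Sall1, at 44.9 CPM in Msx1+ and 150 CPM in Msx1- cells, was lower in Msx1+ cells, as were Cited1 (12.8 and 40.4 CPM) and Pax8. The other 5 were higher there, among them Osr1 (22.2 and 1.31 CPM), Meox1 (17.2 and 2.71 CPM), Crym (65.4 and 35.8 CPM) and Wt1 (8.16 and 4.52 CPM). The part of these markers in the levels of Six2, Eya1 and Eya4 was not tested.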

How the data were processed

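RNA was sequenced with a NEBNext Ultra RNA kit, per the labels' protocols, which does not mark strand. The values deposited are raw counts per gene symbol, in 2 tables. Per the submitters' processing notes, fastp 0.20.0, HISAT2 2.1.0, DESeq2 1.18.1 and GRCm38 were used. For the counting program and the annotation, the sources used here give no name. The day-2 columns name the lines without doxycycline and were read as induced, since the design compares overexpressing EBs. The 4 uninduced samples (2 groups) were not analysed here, and 1 further row of these families is not reported here.

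Counts were fitted with edgeR 4.0.16 in R 4.3.3 (filterByExpr, TMM scaling, robust quasi-likelihood test, two-sided, Benjamini-Hochberg adjustment over all genes, adjusted p below 0.05). The day-2 fit held 4 libraries and 18650 genes, and the sorted fit 8 libraries and 22294 genes. The fit with the ES libraries held 10 libraries and 22504 genes. Levels are CPM; SE is the size of the log2 change over the root of the test's F. Coordinates and exon lengths came from GENCODE vM21. The script was tested on simulated data. Alternatives were RLE scaling, library size alone, other filters, DESeq2 1.42.0, a replicate block and leaving out each library.

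The genes and lists were chosen with earlier results of these data known. Beyond the 8 genes, up to 4 called genes per list with the largest changes could be named; Cited1, Myog, Myod1, Myf5, Dach2 and single markers were named as well, after their values were seen. Replicates differed by more than counting noise (chi-square per degree of freedom 4.13 to 18.5). The labels do not say whether replicates are separate cultures, so p-values measure the spread between these libraries, which may be technical. With 2 against 2 libraries an exact two-sided permutation test cannot go below 0.333. Counting intervals (95%) and the floor of 3 counts cover counting error only.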

Additional observations from a re-analysis of the deposited data

Results flagged for a closer look

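The difference between Msx1+ and Msx1- cells changed from day 8 to day 16 in 3 genes, by edgeR's test of that change. On the log2 scale the change was 1.01 for Eya1 (adjusted p = 0.000509), 0.45 for Six4 (adjusted p = 0.00933) and -1.21 for Eya4 (adjusted p = 0.0285). Eya1 was called in all 15 alternatives tried, Six4 in 14 and Eya4 in 11.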

How the results depend on the processing

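Of 63 calls over the 8 genes and 10 comparisons, 53 held in every alternative tried and 10 were lost in at least 1, and none of the 63 changed direction. All 65 counts of called genes under other settings stayed within 1.5 times. Leaving out each library gave 6 to 7 called genes at day 2, 6 to 6 in the sort at day 8, 7 to 7 at day 16 and 2 to 3 for the change between days. It gave 6 to 7 and 5 to 6 over time in Msx1+ and Msx1- cells. Against ES it gave 6 to 7 and 3 to 6 at day 8 (3 without ES replicate 1), and 8 to 8 and 5 to 5 at day 16, for Msx1+ and Msx1- cells. Values near 0 that were not called changed sign, and the cause was not tested. The Six2 change between days was 0.0204 with RLE, 0.0164 with DESeq2 and 6e-04 with the block, and -0.38 to 0.43 without 1 library. The same range was -0.16 to 0.74 for Dach1. With library size alone, Eya3 was 0.10 at day 8 and -0.024 for the change, and Six4 and Eya1 were 0.0011 and 0.083 in day-16 Msx1- cells against ES. There Eya1 was 0.0071 with a stricter filter and -0.036 to 0.014 without 1 library, and Eya2 in day-8 Msx1- cells was -0.29 to 0.52. With library size alone, the all-gene median became 0.20 at day 2, 0.22 at day 8 and -0.28 for the change, and the share higher among called genes went from 50.8% to 63.6%, from 55.6% to 66.8% and from 35.9% to 15.5%. For time it moved that share from 46% to 34.7% in Msx1+ cells and to 62.9% from 52.5% in Msx1- cells. A filter of 1 CPM in 4 libraries left 5 of the 8 genes at day 2, of which 4 were called. With the replicate number as a block, 6 genes were called at day 8, 7 at day 16 and 3 for the change, 7 and 6 over time, and 7, 4, 8 and 5 against ES. Deviations of same-numbered libraries correlated from -0.237 to 0.451, so the numbers were not taken as a pairing. With crossed numbers, added after seeing the data, 7 genes were called over time in Msx1+ cells, and 9830 of all genes in place of 9986. At day 2 no blocked fit was made, since those columns are tied to groups and not to numbered samples. Low counts limit folds against ES cells, where Eya4 had 8, Six2 24, Dach1 40 and Eya2 56 counts in both libraries together.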
